A study of Mus musculus with 6 samples.

Results

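Cadherins are transmembrane proteins that hold cells together through calcium-dependent binding of their outer domains. Classical cadherins of type I (Cdh1, Cdh2 and Cdh3) and type II (Cdh5, Cdh6 and Cdh11) bind catenins with their cytoplasmic tails, and these link the junction to actin filaments. Cdh13 is anchored in the membrane by a lipid and has no such tail, and Cdh17 is a cadherin of intestinal epithelium whose short tail lacks the catenin site. E-cadherin (Cdh1) is known as the adherens junction protein of epithelia, whereas N-cadherin (Cdh2), Cdh11 and VE-cadherin (Cdh5) are known from neural, mesenchymal and endothelial cells.

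The set comprised these 8 cadherin genes out of 18193 genes measured, and all 16 probe sets that the platform annotation assigns to them out of 45037 tested. Expression had been measured on Affymetrix Mouse Genome 430 2.0 arrays in 3 epithelium samples (A, B and C) and 3 mesenchyme samples (A, B and C) of the small intestine at E18.5, shortly before birth. Each sample was tissue pooled from 3 embryos of C57BL/6 females, with no further treatment or allele named. After 9 hours at 4 °C in Cell Recovery Solution, a non-enzymatic reagent, the sheets were parted by agitation, and 3 of 6 pools per tissue were chosen by RT-PCR for purity. Mesenchyme here means everything left after the epithelium came off, so it holds muscle, fibroblasts, vessels, nerves and mesothelium. The purpose given was to compare the expression profiles of both compartments.

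Values are on the log2 scale, levels are given as mean ± SD over the 3 arrays of a tissue, and differences are epithelium minus mesenchyme with limma's standard error. A probe set or gene was called where the difference was at least 1 (2-fold) in size and its adjusted p was under 0.05. Array medians ran from 8.1 to 8.6 in the epithelium and from 8.5 to 8.7 in the mesenchyme, and the number of arrays limits the precision. All 9 epithelial markers were higher in the epithelium, and all 6 fibroblast and all 6 smooth muscle markers were higher in the mesenchyme. Mesenchyme B stood apart in the hybridization spike-in controls, with a mean of 9.8, against 10.56 to 10.77 elsewhere. In bulk tissue, fewer cells of a type and less RNA per cell cannot be told apart.

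The cadherins split between the compartments. Cdh1 and Cdh17 were higher in the epithelium, and Cdh2, Cdh3, Cdh5, Cdh6, Cdh11 and Cdh13 were higher in the mesenchyme. With a gene read by its brightest probe set, all 8 were called in limma with Benjamini-Hochberg adjustment, which splits into 2 epithelial and 6 mesenchymal genes. Over all genes, 24.1% were called, 8.19% as higher in the epithelium and 15.9% as higher in the mesenchyme. Of the 16 probe sets 13 were called, against 21.5% of all probe sets. The 2 epithelial calls compare with 5.98% of all probe sets and the 11 mesenchymal calls with 15.5%. Tissues did not overlap in 14 of the 16 probe sets, against 41.7% of all probe sets, nor in any of the 8 brightest probe sets, against 46.5% of genes. By the brightest probe sets, the genes fell into a group that differed by 6.2-fold or more (Cdh11, Cdh1, Cdh17, Cdh2 and Cdh5) and a group near the 2-fold limit (Cdh13, Cdh6 and Cdh3). By their other probe sets, Cdh5 differed by 3.25-fold and Cdh6 by 3.91-fold.

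**Figure D1:**
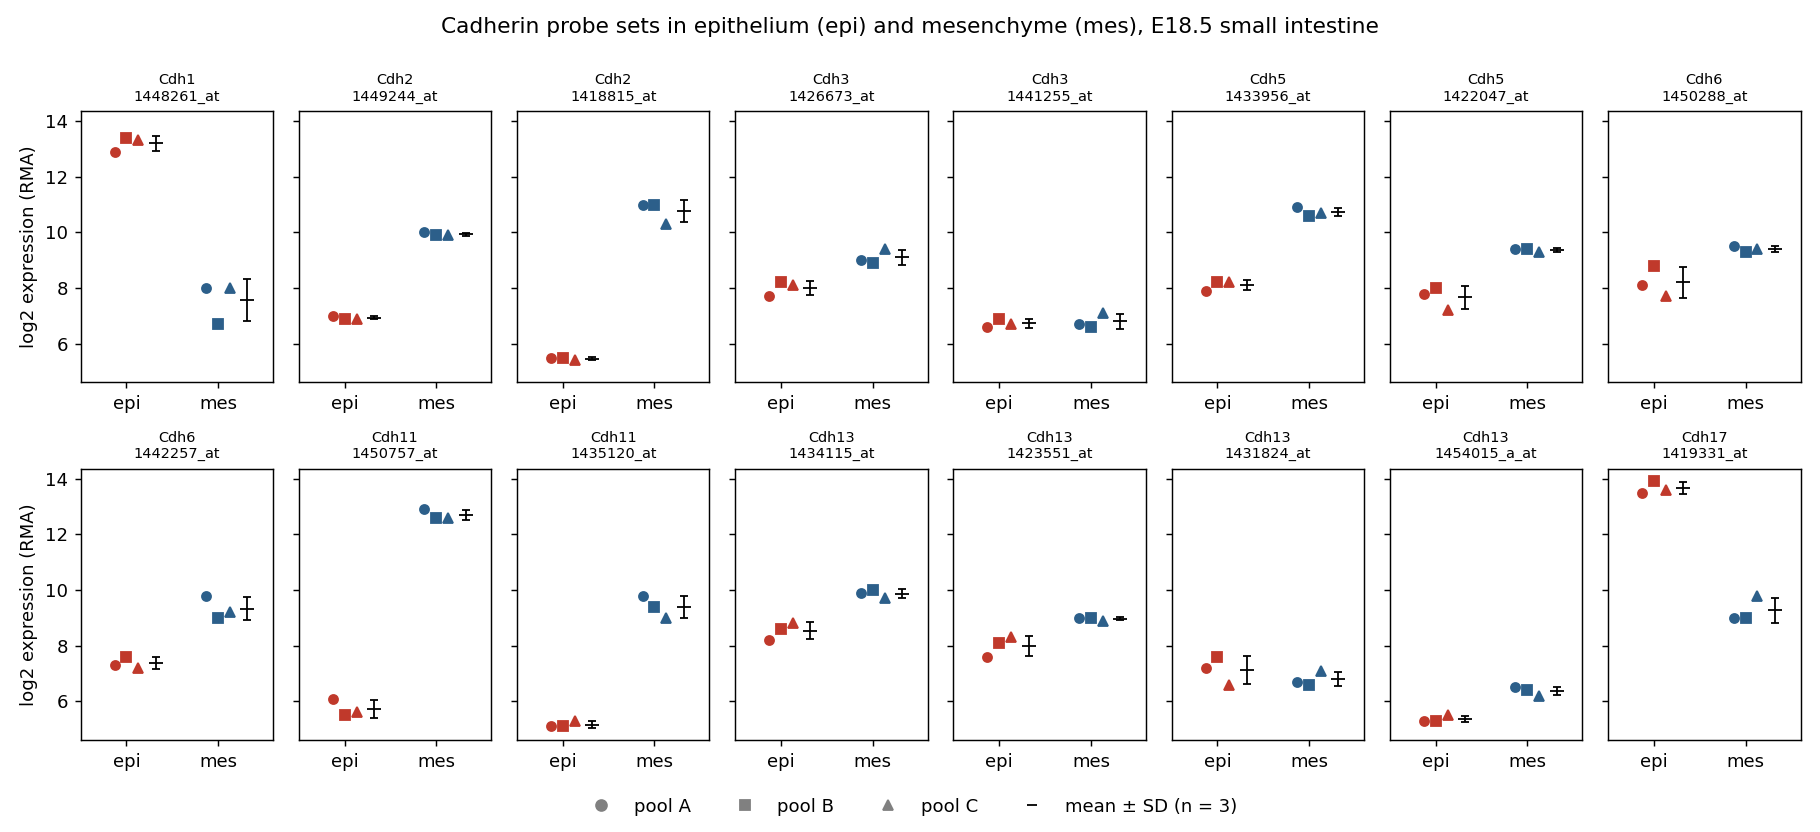
Log2 expression of the 16 cadherin probe sets (1 panel each) in the 3 epithelium pools (epi) and the 3 mesenchyme pools (mes), with the mean ± SD of 3 pools beside the points. Cdh1 and Cdh17 lie far higher in the epithelium, Cdh2, Cdh5 and Cdh11 far higher in the mesenchyme, and 1441255_at of Cdh3 and 1431824_at of Cdh13 overlap between tissues.

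Cdh1, the cadherin of epithelial adherens junctions, was read by 1 probe set (1448261_at). It stood at 12.9, 13.4 and 13.3 in epithelium A, B and C, against 8.0, 6.7 and 8.0 in mesenchyme A, B and C. The tissues lay far apart, and mesenchyme B was below the other mesenchymal arrays. The levels were 13.2 ± 0.26 in the epithelium and 7.57 ± 0.75 in the mesenchyme (SD, n = 3 each), a difference of 5.63 ± 0.27 or 49.6-fold (limma, adjusted p = 2.54e-19). Its mesenchymal signal was 2.015% of the epithelial signal on the linear scale. Mesenchyme B was the low array for Cdh1 and, alone, for 6 of the 9 epithelial markers, whose summed log2 level was 15.97 to 16.38 in the epithelium and 12.28 to 12.74 in the mesenchyme. The part of epithelial RNA in the mesenchymal signal was not tested, and without mesenchyme B the difference of Cdh1 was 5.2.

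Cdh17, also called LI-cadherin, was the other epithelial member. Its probe set (1419331_at) gave 13.5, 13.9 and 13.6 in epithelium A, B and C, against 9.0, 9.0 and 9.8 in mesenchyme A, B and C. No epithelial value came near a mesenchymal one, and mesenchyme C was the high array of its tissue. The difference was 4.40 ± 0.24, or 21.1-fold (limma, adjusted p = 1.13e-17). The mesenchymal signal of Cdh17 was 4.74% of its epithelial signal, and those of the 9 epithelial markers ranged from 3.85% for Vil1 to 35.4% for Cldn4 with a median of 10.6%. Among these markers the dimmest in the mesenchyme was Esrp1, a splicing regulator, at 7.2, 7.0 and 7.1 in mesenchyme A, B and C, where 15 bacterial control probe sets averaged 5.95 to 6.24 per array.

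Cdh11, known as OB-cadherin and expressed by mesenchymal cells, had the largest difference of the 8 genes by the brightest probe sets (in the mean of probe sets, Cdh11 gave -5.60 and Cdh1 5.63). Its brighter probe set (1450757_at) gave 6.1, 5.5 and 5.6 in epithelium A, B and C, against 12.9, 12.6 and 12.6 in mesenchyme A, B and C. The difference was -6.97 ± 0.23, or 125-fold (limma, adjusted p = 3.24e-23). The epithelial values lay at the level of the bacterial controls (5.91 to 6.06 on average in the epithelial arrays), so that the fold is understated if the gene was silent there. Its other probe set (1435120_at) gave 5.1, 5.1 and 5.3 in the epithelial arrays, against 9.8, 9.4 and 9.0 in the mesenchymal arrays. Both probe sets separated the tissues without overlap, but the second gave a smaller difference of -4.23 ± 0.24.

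Cdh2, the N-cadherin of neural tissue and many mesenchymal cells, was higher in the mesenchyme by both of its probe sets. Probe set 1449244_at gave 7.0, 6.9 and 6.9 in epithelium A, B and C, against 10.0, 9.9 and 9.9 in mesenchyme A, B and C. Probe set 1418815_at gave 5.5, 5.5 and 5.4 in the epithelium, against 11.0, 11.0 and 10.3 in the mesenchyme. Within each tissue the arrays of the first probe set lay within 0.1 of each other, and mesenchyme C was the low array of the second. The differences of Cdh2 were -3.0 ± 0.22 (8-fold) by 1449244_at and -5.30 ± 0.24 by 1418815_at (limma, adjusted p over probe sets = 5.68e-14 and 3.22e-20). The epithelial values of 1418815_at lay below the mean of the bacterial controls on each epithelial array, so that this difference is understated if the gene was silent there, and no fold is given. The neuronal markers Uchl1 (-5.17 ± 0.23) and Elavl4 (-4.00 ± 0.23) were also higher in the mesenchyme. Of 6 measured neuron and glia markers, 3 were called, each on the mesenchymal side, where 15.9% of all genes were called. Sox10 (-0.83), Ret (-0.40) and S100b (0.17) were not called. The summed log2 level of these 6 markers was 10.99 to 11.29 in the epithelium and 13.1 to 13.21 in the mesenchyme, and the part of nerves in the Cdh2 signal was not tested.

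Cdh5 encodes VE-cadherin, the adherens junction cadherin of endothelial cells. Probe set 1433956_at gave 7.9, 8.2 and 8.2 in epithelium A, B and C, against 10.9, 10.6 and 10.7 in mesenchyme A, B and C. Probe set 1422047_at gave 7.8, 8.0 and 7.2 in the epithelial pools, against 9.4, 9.4 and 9.3 in the mesenchymal pools. Neither probe set had overlapping tissues, and epithelium C was the low array of the second. The differences of Cdh5 were -2.63 ± 0.23 (6.2-fold) and -1.70 ± 0.24 (limma, adjusted p over probe sets = 2.95e-12 and 2.13e-07). Of 10 other endothelial markers, 8 were called, each on the mesenchymal side, where 15.9% of all genes were called. Differences of the 10 ran from -5.60 (Plvap) to -0.37 (Egfl7), and Egfl7 and Erg (-0.53) were not called. The summed log2 level of the 10 was 12.21 to 12.56 in the epithelium and 14.72 to 14.94 in the mesenchyme.

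Cdh6, a type II cadherin known from kidney and neural development, was higher in the mesenchyme by both probe sets. Probe set 1450288_at gave 8.1, 8.8 and 7.7 in epithelium A, B and C, against 9.5, 9.3 and 9.4 in mesenchyme A, B and C. Probe set 1442257_at gave 7.3, 7.6 and 7.2 in the epithelium, against 9.8, 9.0 and 9.2 in the mesenchyme. Epithelium B was the high epithelial array in both, and it stayed below all mesenchymal arrays. The differences of Cdh6 were -1.20 ± 0.25 (2.3-fold) and -1.97 ± 0.24 (3.91-fold), with adjusted p-values over probe sets of 0.000146 and 1.31e-08 in limma. By the brighter probe set the difference was under 2-fold after 4 scalings of the arrays, namely quantile normalization, cyclic loess, equal medians and centring on ribosomal protein genes (-0.93 to -0.87), and without epithelium C (-0.95), though each of these kept an adjusted p under 0.05 in limma.

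The search for promoters in the RefSeq table used here left a chromosome out, so that any member on that chromosome could not be found. Of the 8 genes, Cdh6 is the one whose promoter was found. Its 250 bases before the transcript start (GRCm38.p6, chr15:13173676-13173925, minus strand, written along the gene) are shown because E-boxes are the sites that the repressors described below are known to bind in the Cdh1 promoter. Capitals mark the only match to the general E-box CANNTG, which reads the same way on both strands in its fixed letters and is shared by 66.2% of the 32851 promoter windows.
Cdh6: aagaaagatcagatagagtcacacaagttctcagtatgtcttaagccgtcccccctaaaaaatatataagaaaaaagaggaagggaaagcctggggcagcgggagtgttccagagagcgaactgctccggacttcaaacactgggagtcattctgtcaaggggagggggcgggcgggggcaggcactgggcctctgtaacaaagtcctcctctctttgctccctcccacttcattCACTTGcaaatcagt
The match begins 15 bases before the start. The narrower E-box CACCTG, or CAGGTG on the other strand, is a special case of CANNTG that 17.2% of the windows hold, and these letters are not in this window.

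Cdh13, or T-cadherin, is a receptor for adiponectin known from vessels and muscle, and its probe sets disagreed. Probe set 1434115_at gave 8.2, 8.6 and 8.8 in epithelium A, B and C, against 9.9, 10.0 and 9.7 in mesenchyme A, B and C, a difference of -1.33 ± 0.23 (2.52-fold). Probe set 1423551_at gave 7.6, 8.1 and 8.3 in the epithelial pools, against 9.0, 9.0 and 8.9 in the mesenchymal pools, a difference of -0.97 ± 0.23 that fell just short of 2-fold. Both separated the tissues, and epithelium A was the low array in each. The dim probe set 1454015_a_at of Cdh13 gave -1.0 ± 0.23, exactly at the limit, with epithelial values of 5.3, 5.3 and 5.5 at background. It counts among the 13 called probe sets, but its call ended under 9 of 15 alternatives. Probe set 1431824_at overlapped between tissues, with 7.2, 7.6 and 6.6 in the epithelial pools, against 6.7, 6.6 and 7.1 in the mesenchymal pools (0.33 ± 0.25). In limma the adjusted p-values over probe sets of these 4 were 1.17e-05, 0.000966, 0.000444 and 0.324. In the mean of all its probe sets, the difference of Cdh13 was -0.74 (limma, adjusted p = 0.00206), which is under 2-fold.

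Cdh3, the P-cadherin of basal epidermis and placenta, was higher in the mesenchyme by 1 of its 2 probe sets. Probe set 1426673_at gave 7.7, 8.2 and 8.1 in epithelium A, B and C, against 9.0, 8.9 and 9.4 in mesenchyme A, B and C. Probe set 1441255_at gave 6.6, 6.9 and 6.7 in the epithelium, against 6.7, 6.6 and 7.1 in the mesenchyme. The tissues were separate in the first and overlapped in the second. The differences of Cdh3 were -1.10 ± 0.23 (2.14-fold) and -0.07 ± 0.23 (limma, adjusted p over probe sets = 0.000214 and 0.853). The first was under 2-fold after the same 4 scalings (-0.85 to -0.77) and without epithelium A or mesenchyme C (-0.95 each), and the mean of both probe sets gave -0.58. In the RefSeq gene table of GRCm38.p6, Cdh3 and Cdh1 are neighbours with 0 other protein-coding genes starting between them, and so are Cdh5 and Cdh11. The neighbours Cdh1 and Cdh3 thus differed in opposite directions, and Cdh5 and Cdh11 in the same direction.

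**Figure D2:**
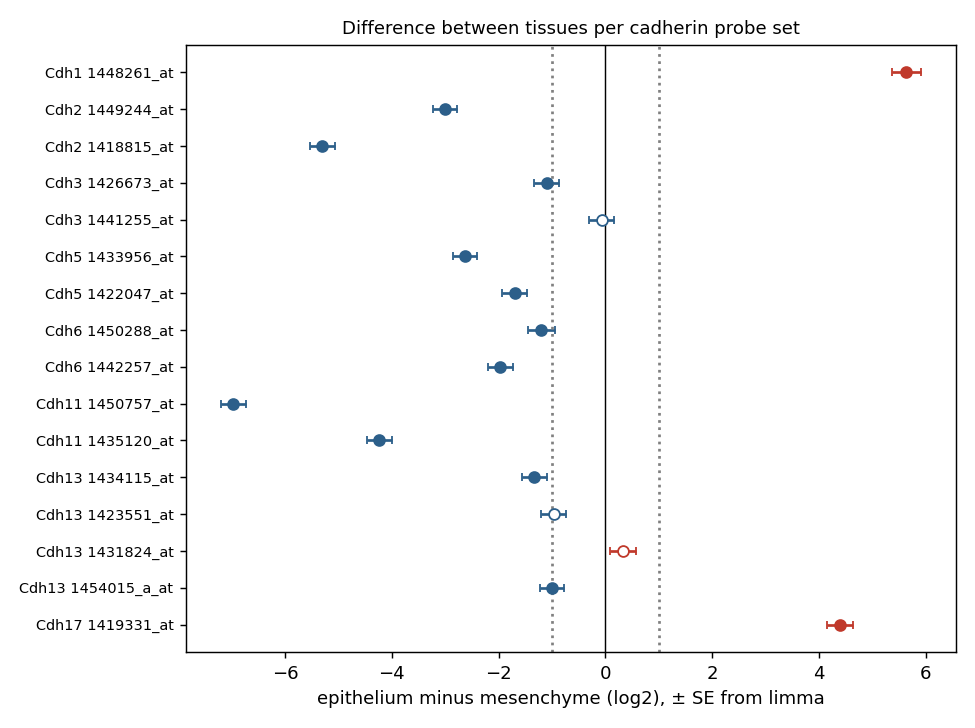
Difference between tissues (epithelium minus mesenchyme, log2, ± SE from limma, 3 arrays per tissue) of each cadherin probe set, with red for higher in the epithelium and blue for higher in the mesenchyme. Filled points are the 13 called probe sets, open points the 3 not called, and dotted lines mark 2-fold.

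Whether probe sets of a gene differed from each other was tested by fitting, with limma, the brightest probe set minus each other one per array over all 16752 such pairs. This test was chosen after the values were seen. Of the 8 pairs of the cadherins, 4 differed by at least 2-fold at an adjusted p under 0.05, against 19.9% of all pairs. They were the pair of Cdh11 (-2.73 ± 0.24, adjusted p = 4.49e-06), that of Cdh2 (2.30 ± 0.22, adjusted p = 9.81e-06), that of Cdh3 (-1.03 ± 0.19, adjusted p = 0.00115) and 1434115_at against 1431824_at of Cdh13 (-1.67 ± 0.33, adjusted p = 0.0021). The pairs of Cdh5 (-0.93 ± 0.25) and Cdh6 (0.77 ± 0.24) differed by less than 2-fold (limma, adjusted p = 0.0128 and 0.0277). The pairs of Cdh13 with 1423551_at (-0.37 ± 0.18) and with 1454015_a_at (-0.33 ± 0.20) did not pass (limma, adjusted p = 0.142 and 0.216). In the pairs of Cdh2 and Cdh11, 1 or both probe sets were at background in the epithelium, so that the exact size of their tissue difference was not measured. The direction in called probe sets was the same within each gene.

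Centring moved all differences by the same amount, whereas quantile normalization and cyclic loess moved them unequally. As deposited, all genes together had a median difference of -0.17, and this was 0.11 after quantile normalization, 0.05 after cyclic loess, 0.13 with equal medians, 0.15 with arrays centred on ribosomal protein genes and -0.43 with arrays centred on spike-in controls. The share of called genes that were higher in the mesenchyme, 66.0% as deposited, was 52.9%, 55.4%, 49.4%, 48.7% and 77.5% under these scalings. Against that shift, Cdh1 stayed between 5.2 and 5.95 over 17 alternatives, Cdh17 between 4.14 and 4.72, Cdh5 between -2.89 and -2.17, Cdh2 between -4.15 and -2.68 and Cdh11 between -7.23 and -5.60. These 5 genes were called under all 17. Cdh13 was called under 16, and its difference over the 4 scalings that lowered the calls of Cdh3 and Cdh6 was -1.05 to -1.01. No cadherin gene changed direction.

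**Figure D3:**
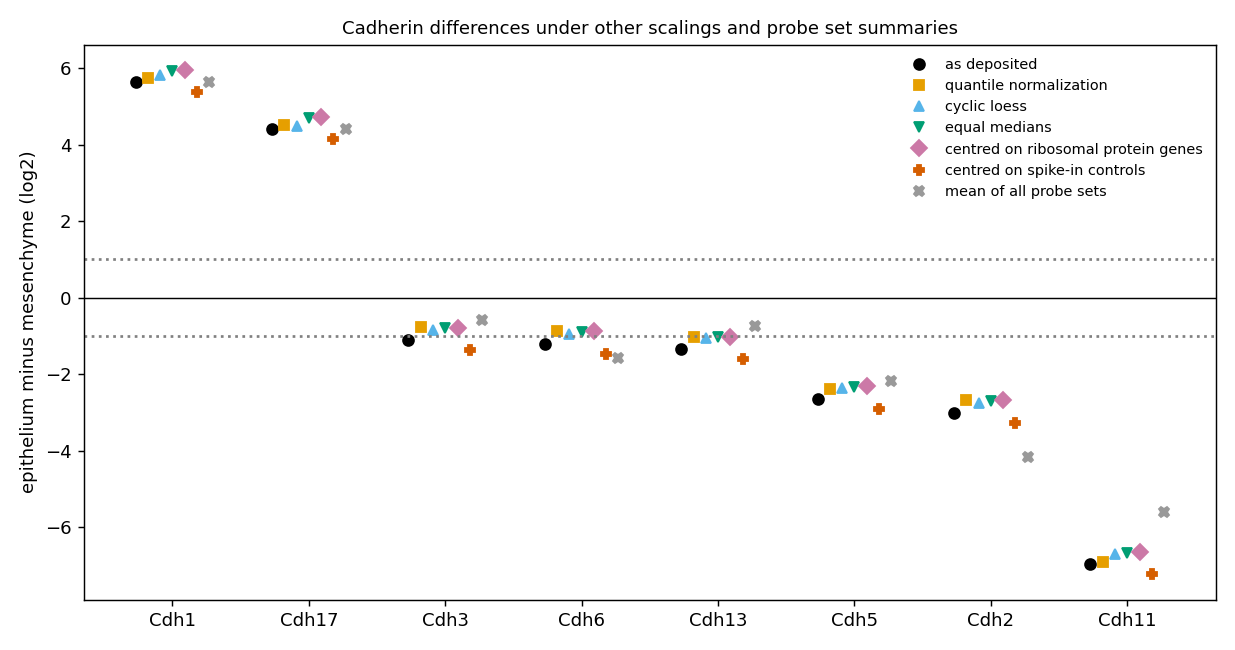
Difference between tissues (epithelium minus mesenchyme, log2) of each cadherin gene in the deposited values, under 5 other scalings of the arrays and in the mean of its probe sets, with dotted lines at 2-fold. Cdh1, Cdh17, Cdh5, Cdh2 and Cdh11 stay outside the 2-fold lines. Cdh3 and Cdh6 lie inside them under 4 scalings, and Cdh3 and Cdh13 in the mean of their probe sets.

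Several repressors known to silence Cdh1 through E-boxes were higher in the mesenchyme. Of 6 such factors, 4 were called, each on the mesenchymal side (15.9% of all genes), with a median difference of -1.25 against -0.17 over all genes. Snai2 gave 6.0, 5.8 and 6.1 in epithelium A, B and C, against 12.0, 11.6 and 11.7 in mesenchyme A, B and C (-5.80 ± 0.23, limma, adjusted p = 1.38e-21). The Snai2 values at the epithelial side lay at background. Zeb1 differed by -2.60 ± 0.23 by the brightest of its 4 probe sets, by -4.13 ± 0.23 and -0.90 ± 0.23 by 2 others, and by 0.43 ± 0.24 with overlapping tissues by 1420243_at. Zeb2 differed by -1.30 ± 0.23 by its brightest probe set, a call that ended after quantile normalization and ribosomal centring (-0.98 each). The other probe sets of Zeb2 were all called, at -5.70 ± 0.23 (1456389_at), -5.47, -5.40 and -2.17, with epithelial values at background. Probe set 1456389_at gave 5.2, 5.3 and 5.3 in the epithelial pools, against 11.1, 10.7 and 11.1 in the mesenchymal pools. Twist2 differed by -1.20 ± 0.23, and this call ended under the 4 scalings named above (-0.92 to -0.88). Snai1 (-0.90 ± 0.23) and Twist1 (-0.70 ± 0.23) were under 2-fold, with adjusted p-values of 0.00134 and 0.0125 in limma.

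Of 12 catenin and actin-linker genes, 1 was called on the epithelial side and 2 on the mesenchymal side, a share close to the 24.1% called over all genes. The median difference of the list was 0.18, against -0.17 over all genes. Beta-catenin (Ctnnb1), which binds the tails of classical cadherins, gave 13.6, 14.1 and 13.7 in epithelium A, B and C, against 13.9, 13.8 and 13.7 in mesenchyme A, B and C. Its levels overlapped, with a difference of 0.00 ± 0.23 by the brightest of 3 probe sets, and -0.10 ± 0.23 and 0.07 ± 0.24 by the others. Alpha-catenin (Ctnna1), which couples beta-catenin to actin, differed by 0.23 ± 0.23, and plakoglobin (Jup), a catenin shared with desmosomes, by 0.23 ± 0.23. The p120-catenin gene Ctnnd1, whose product keeps cadherins at the surface, differed by 0.87 ± 0.23 (limma, adjusted p = 0.00223), under 2-fold as deposited. Ctnnd1 passed 2-fold with equal medians (1.17) and ribosomal centring (1.19), and missed the threshold of adjusted p with spike-in centring (0.61, adjusted p = 0.196 in limma) and in the mean of its probe sets (0.36, adjusted p = 0.182). Its probe set 1445830_at overlapped between tissues and ran the other way (-0.5 ± 0.25). Arvcf, a relative of Ctnnd1, differed by -0.90 ± 0.22 (adjusted p = 0.00118 in limma).

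Plekha7, which binds p120-catenin at the zonula adherens, was the called epithelial gene of this list, with 10.0, 10.7 and 10.6 in epithelium A, B and C and 9.4, 9.4 and 9.3 in mesenchyme A, B and C (1.07 ± 0.23). The call of Plekha7 by this probe set ended with spike-in centring (0.81) and without epithelium B (0.93) or epithelium C (0.98), and its other probe sets gave 0.70 and 2.10. Vinculin (Vcl), which reinforces junctions and focal adhesions and is abundant in muscle, gave 10.3, 11.0 and 10.7 in the epithelium, against 13.0, 12.8 and 12.8 in the mesenchyme (-2.20 ± 0.23). The neural alpha-catenin Ctnna2 gave 5.9, 6.2 and 6.3 in the epithelial pools, against 8.0, 7.8 and 7.9 in the mesenchymal pools (-1.77 ± 0.23). Adjusted p-values of Vcl and Ctnna2 were 4.36e-10 and 3.22e-08 in limma. Of the 6 smooth muscle markers set beside Vcl, the summed log2 level was 10.41 to 10.99 in the epithelium and 16.51 to 16.58 in the mesenchyme, and the part of muscle was not tested.

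**Figure D4:**
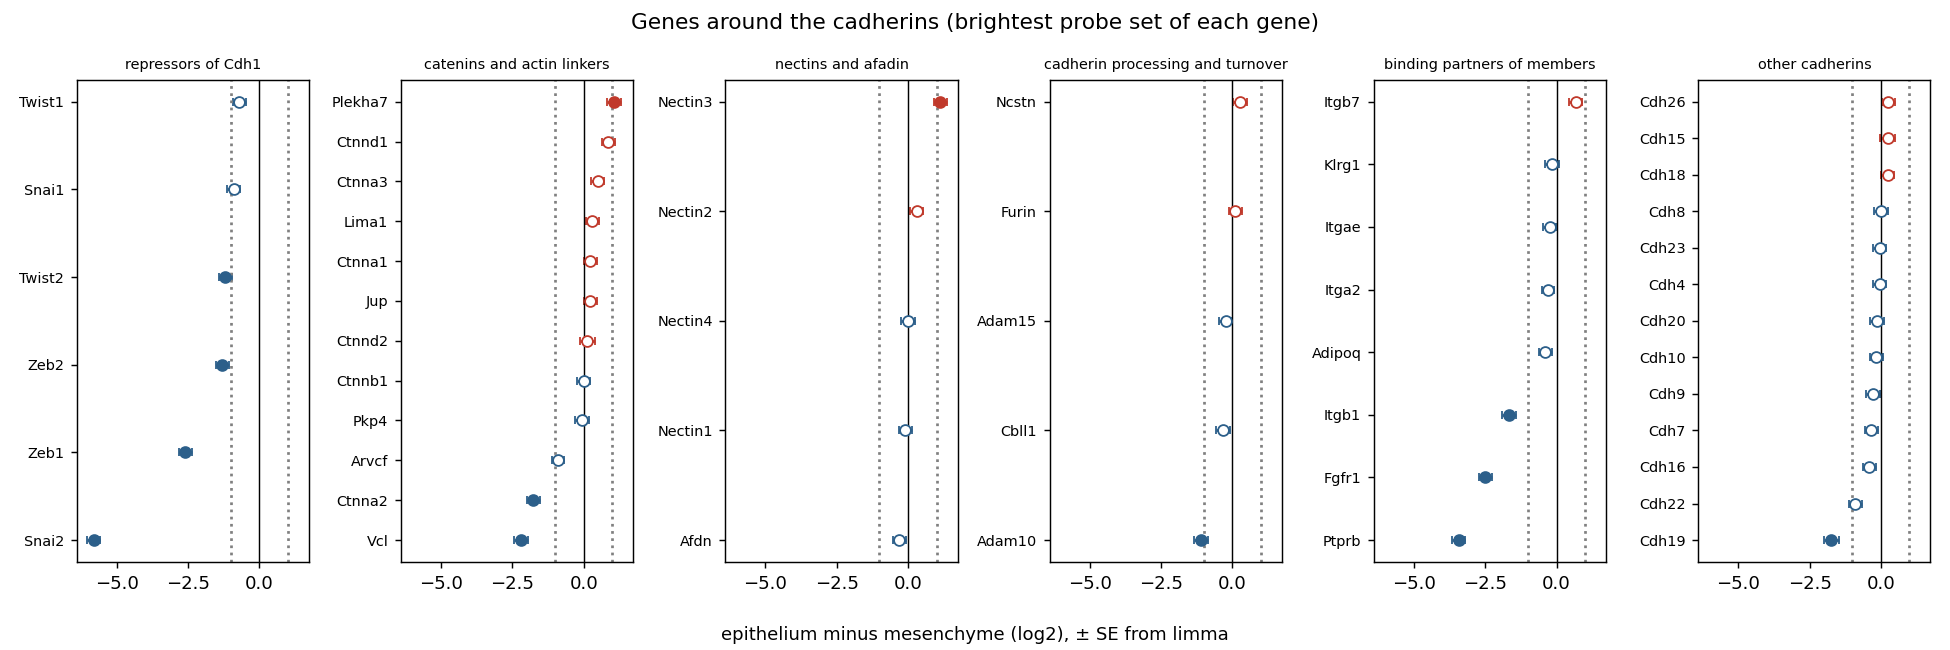
Difference between tissues (epithelium minus mesenchyme, log2, ± SE from limma, 3 arrays per tissue) of the genes in 6 lists around the cadherins, each read by its brightest probe set, with filled points for called genes and dotted lines at 2-fold. By these probe sets, Snai2 and Zeb1 lie far to the mesenchymal side, whereas Ctnnb1, Ctnna1 and Jup lie near 0.

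Nectins, immunoglobulin-type adhesion molecules that assemble adherens junctions with cadherins through afadin, gave 1 call among 5 genes, against 24.1% of all genes. Nectin3 was called higher in the epithelium (1.13 ± 0.24, limma, adjusted p = 0.000142), with 10.8, 11.5 and 10.9 in the epithelial pools, against 10.1, 9.9 and 9.8 in the mesenchymal pools. The call of Nectin3 ended with spike-in centring (0.87), without epithelium B (0.92) and in the mean of its 6 probe sets (0.60). Of its other probe sets, 1417319_at was called (1.57). The rest were not called and differed in direction (0.87, 0.57, -0.20 and -0.33). Nectin1 (-0.10 ± 0.23), Nectin2 (0.30 ± 0.23), Nectin4 (0.00 ± 0.24) and the afadin gene Afdn (-0.30 ± 0.24) were not called.

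Among enzymes that process or remove cadherins, the sheddase Adam10 was called higher in the mesenchyme (-1.10 ± 0.24, limma, adjusted p = 0.000266), and 4 of the 5 measured genes were not called, against 24.1% called over all genes. The call of Adam10 ended with equal medians (-0.80), ribosomal centring (-0.78), in the mean of its probe sets (-0.87) and without epithelium A (-0.92) or mesenchyme A (-0.98). Its other probe sets 1450104_at (-1.0) and 1450105_at (-1.40) were called too, whereas 1460083_at (0.03) overlapped between tissues. Furin, which removes the propeptide of classical cadherins, differed by 0.10 ± 0.23, and the ubiquitin ligase gene Cbll1, whose product targets E-cadherin, by -0.33 ± 0.24. Adam15 (-0.23 ± 0.23) and the secretase subunit gene Ncstn (0.27 ± 0.23) complete this group.

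Of 8 genes for partners of the cadherins other than catenins, 3 were called, each on the mesenchymal side, where 15.9% of all genes were called. Ptprb, an endothelial phosphatase that associates with VE-cadherin, gave 7.5, 7.8 and 7.8 in epithelium A, B and C, against 11.1, 11.1 and 11.2 in mesenchyme A, B and C (-3.43 ± 0.23), and its other probe sets gave -2.70 and -1.30. Fgfr1, a receptor that interacts with N-cadherin, differed by -2.50 ± 0.23 (-5.17 and -1.20 by its other probe sets), and the integrin gene Itgb1 by -1.67 ± 0.23. Adjusted p-values of these 3 were 1.49e-07 or lower in limma. By other probe sets with signal, Itgb1 differed by -1.80 and -1.93. In the mean of its 6 probe sets, some at background in both tissues, the difference of Itgb1 was -0.97. The genes for lymphocyte receptors of E-cadherin, Itgae (-0.23 ± 0.23) and Klrg1 (-0.17 ± 0.24), and for the T-cadherin ligand adiponectin, Adipoq (-0.40 ± 0.23), were not called. Itga2 (-0.30 ± 0.23), whose integrin binds Cdh17 in human cells, and Itgb7 (0.67 ± 0.23, limma, adjusted p = 0.0194), which pairs with Itgae, were not called either.

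Of 13 other measured genes of the cadherin family, 1 was called, against 24.1% of all genes. This was Cdh19, higher in the mesenchyme, and 12 were not called, with differences from -0.90 (Cdh22) to 0.27 (Cdh26). Cdh19, known from Schwann cell precursors, gave 5.8, 6.0 and 6.4 in epithelium A, B and C, against 8.3, 7.2 and 7.9 in mesenchyme A, B and C (-1.73 ± 0.25, limma, adjusted p = 4.65e-07). Cdh22 (7.7, 8.2 and 7.8 in the epithelial pools, against 8.9, 8.8 and 8.7 in the mesenchymal pools) separated the tissues with an adjusted p of 0.0015 in limma, and passed 2-fold with spike-in centring (-1.16) and without epithelium B (-1.05). Cdh16, the kidney relative of Cdh17, was at 9.1 in each epithelial array and at 9.3, 9.6 and 9.6 in the mesenchyme (-0.40 ± 0.23, limma, adjusted p = 0.163).

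Likeness of pattern was measured as the root mean square distance between the log2 values of 2 genes over the 6 arrays, each gene centred on its own mean, with the 2 nearest genes named. Nearest to Cdh1 were Olfm4 (0.20) and Tmem45b (0.27), and nearest to Cdh17 were Ckmt1 (0.07) and Cldn7 (0.08). Nearest to Cdh11 were Ccl11 (0.24) and Myh11 (0.32). Rgma and Tm6sf1 lay nearest to Cdh2 (0.09 each), and Sgip1 (0.04) and Pcdh12 (0.07) nearest to Cdh5. Nearest to Cdh13 were Septin11 (0.07) and Spice1 (0.07), to Cdh6 Aldh1a1 (0.04) and Cetn3 (0.05), and to Cdh3 Ereg (0.07) and Dph7 (0.07). With 6 arrays in 2 tissues, the tissue difference dominates this measure.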

How the data were processed

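Per the submitters' processing notes, the authors used RMA, which yields the deposited log2 values. Version, settings and the step between arrays are not given in the sources used here. They are rounded to 0.1, carry no detection calls and were used with no further scaling. Of 45101 probe sets, 64 controls were left out. Of 45037 tested, 34945 had 1 gene symbol, 932 several and 9160 none in the platform annotation. Symbols were updated through RefSeq gene IDs (GRCm38.p6, 34741 probe sets), through current symbols (143) or kept (61), giving 18193 genes. The probe set brightest on average over the 6 arrays stood for its gene.

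Epithelium and mesenchyme, grouped by sample titles, were compared with limma 3.58.1 (R 4.3.3, lmFit and eBayes, all 6 arrays, 4 residual and 31.7 prior degrees of freedom). Benjamini-Hochberg adjustment ran over all genes or all probe sets. They measure the spread between pools, which had been chosen by RT-PCR. The standard error is drawn towards a spread shared by all probe sets. The mesenchymal pools of Cdh1 had an SD of 0.75, with mesenchyme B apart from the others. The fit was tested on simulated data.

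Members and gene lists were chosen with earlier results of these data known. All 16 probe sets of the members are given. Of the other lists, the rule took up to 4 called genes per direction with the largest differences and every gene of lists of up to 6. The marker lists not described in the report gave 4 of 6 mesothelial and 5 of 6 immune genes called higher in the mesenchyme, against 15.9% of all genes. Under the 4 scalings other than spike-in centring, 3 mesothelial and 4 immune genes were called. The immune gene not called in the deposited values was Csf1r (0.40), read by the brightest of its 3 probe sets. The other probe sets of Csf1r are not reported. Genes that were not called were named in longer lists after their values were seen. Cdh12, Cdh24 and some other listed genes were not analysed here. Alternatives were 5 scalings, a filter on levels under 7, an intensity trend, the mean of probe sets, no minimum difference, a replicate block and leaving out each array.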

Additional observations from a re-analysis of the deposited data

How the results depend on the processing

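No called cadherin, and no called gene of the lists other than the marker lists, reversed under any of the alternatives run. For the marker lists only the number of called genes was compared, which does not show reversals. The 8 called cadherin genes were 6 after quantile normalization, cyclic loess, equal medians, ribosomal centring and in the mean of probe sets, and 7 to 8 with 1 array left out. The 13 called cadherin probe sets were 10 under those 4 scalings. The call of Cdh3 fell short of 2-fold after quantile normalization (-0.77), loess (-0.85), equal medians (-0.80), ribosomal centring (-0.78) and in the mean of probe sets (-0.58), and ranged from -1.20 to -0.95 with 1 array left out. For Cdh6, read by its brightest probe set, these 4 scalings gave -0.87, -0.93, -0.90 and -0.88, and leaving out 1 array -1.5 to -0.95. Its other probe set 1442257_at kept its call under all 16 alternatives run for it (-2.23 to -1.63). In the mean of its probe sets Cdh6 gave -1.58 and stayed called. Cdh13 fell short in the mean of probe sets (-0.74). All of these kept adjusted p-values of 0.0186 or lower in limma.

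Of the 6 repressors of Cdh1, read by their brightest probe sets, 2 were called after quantile normalization and 2 with ribosomal centring, in place of 4. Of the processing genes, 0 in place of 1 were called with equal medians, ribosomal centring and the mean of probe sets, and 0 to 1 with 1 array left out. Of the nectins, 0 in place of 1 were called with spike-in centring and the mean of probe sets, and 0 to 1 with 1 array left out. Of the other cadherins, 2 in place of 1 were called with spike-in centring and with no minimum difference, and 1 to 2 with 1 array left out. Of the catenins and linkers, 5 in place of 3 were called with no minimum difference. Without that minimum, 7503 genes were called in place of 4384. The cause of these changes was not tested, apart from the removal of the 2-fold limit itself.

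Spike-in centring rested on mesenchyme B. With that array left out, an alternative chosen after seeing the data, the median of all genes was -0.15 and all 8 cadherin genes were called. Deviations of arrays that share a letter correlated at -0.31 (A), -0.15 (B) and 0.12 (C), so that the letters were not taken as pairs. With the letter as a replicate block, 8 cadherin genes and 13 probe sets were called. Of 80 results, 80 kept their call or, for counts of called genes or probe sets, a similar count. Without detection calls, the values do not show whether a dim cadherin was expressed.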
